A study of Homo sapiens with 12 samples.

Results

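TFK1 cells given 6 Gy of ionising radiation were compared with untreated TFK1 cells across all expressed genes, which concerned 6 of the 12 samples sequenced in the study. TFK1 is an established human cholangiocarcinoma line, a cancer of bile duct epithelium, and its genotype is given in the labels as WT. The whole study asked how nab-paclitaxel, in which paclitaxel, a drug that stabilises microtubules, is bound to albumin, raises the sensitivity of these cells to radiation. The radiation libraries (n = 3) came from cells given 6 Gy without drug, and the control libraries (n = 3) came from cells left without either treatment. A further 3 combination libraries came from cells given 6 Gy and 1.62 ng/ml nab-paclitaxel, and 3 nab-paclitaxel libraries from cells given the drug without radiation. RNA was taken in all 4 groups at 24 h of treatment, from 1 cell line and at 1 dose. Each group held 3 labelled biological replicates, so p-values measure the spread between these samples, and nothing in the labels says how separately the cultures were kept. Expression was measured for 58735 genes as FPKM, fragment counts scaled for gene length and library size. Tests covered the 13609 genes that averaged 1 FPKM or more over all 12 libraries.

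Ionising radiation breaks DNA, and the checkpoint kinases that sense the breaks stabilise the transcription factor p53 and hold cells before replication and mitosis. In epithelial cells the hours and days after such damage are also known for changes in growth factor ligands, immediate early transcription factors, matrix proteins and secreted cytokines. The listed p53 targets and cell cycle genes are, apart from CDKN1A, given here by their counts. The description turns on the genes outside these lists. A gene outside them may still belong to the p53 or cell cycle response, as the p53-induced RNAs PURPL and PINCR do.

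A log2 difference below is radiation minus control on log2(FPKM + 1), which understates the change of low genes, with its SE after ±, while FPKM means carry their SD (n = 3 per group). The words rose and fell are used where limma, fitted across all 13609 genes, gave an adjusted p (Benjamini-Hochberg) under 0.05, and no gene named as risen or fallen had overlapping radiation and control libraries. The 6 libraries held 14840283 to 16809052 fragments. On the second principal component of all 12 libraries, control 2, nab-paclitaxel 1 and, less far, combination 2 stood apart from the other libraries of their groups (-30.6, -28.6 and -3.64, against values of -0.76 to 15.4 in the other 9). CDKN1A, the gene of the p21 protein that blocks cyclin-dependent kinases, stood at 196, 205 and 198 FPKM in the radiation libraries, against 122, 108 and 119.8 FPKM in the control libraries (0.77 ± 0.08, adjusted p = 4.89e-04). Of the reference genes in common use, ACTB fell (-0.41 ± 0.08, adjusted p = 0.0148) and GAPDH did not pass (-0.12 ± 0.11, adjusted p = 0.606). The ACTB call was lost under quantile normalization (adjusted p = 0.180). Calls ended for ACTB without control 1 or radiation 1, 2 or 3 (adjusted p up to 0.076).

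Of 12 biliary epithelial markers 8 reached a mean of 1 FPKM, led by KRT19, KRT8, KRT18, SOX9 and EPCAM, while SPP1, KRT7 and MUC1 were among those under 1 FPKM. The summed level of the biliary list was 1144 to 1222 FPKM in radiation and 759.9 to 957 FPKM in control, without overlap. The keratins KRT19, KRT8 and KRT18 made up most of that sum, and not every marker was higher: EPCAM averaged 90.4 ± 2.46 FPKM in radiation, against 106 ± 5.64 FPKM in control, CLDN4 37.5 ± 0.835 FPKM in radiation, against 45.6 ± 6.15 FPKM in control and CDH1 44.01 ± 0.253 FPKM in radiation, against 49.1 ± 1.22 FPKM in control. Markers of other cells were low: 1 of 12 hepatocyte markers (SERPINA1), 1 of 19 macrophage markers (ITGAX), 3 of 15 fibroblast markers and 0 of 15 lymphocyte and endothelial markers reached 1 FPKM. The hepatocyte markers summed to 6.64 to 7.42 FPKM in radiation and 4.37 to 6.36 FPKM in control, and the macrophage markers to 4.28 to 4.94 FPKM in radiation and 2.58 to 3.19 FPKM in control. Of the macrophage list, C1QA, C1QB, FCGR3A, TYROBP and VSIG4 were at 0 in both groups, while ITGAX averaged 2.44 ± 0.106 FPKM in radiation, against 1.81 ± 0.153 FPKM in control, CSF1R 0.979 ± 0.0493 FPKM in radiation, against 0.723 ± 0.125 FPKM in control, CD14 0.427 ± 0.144 FPKM in radiation, against 0.171 ± 0.0916 FPKM in control and ITGAM 0.298 ± 0.0814 FPKM in radiation, against 0.0823 ± 0.0626 FPKM in control. The fibroblast sums overlapped, at 13.1 to 15.2 FPKM in radiation and 12.9 to 14.7 FPKM in control, and so did the lymphocyte and endothelial sums, at 2.00 to 2.46 FPKM in radiation and 1.59 to 2.06 FPKM in control. More genes had at least 1 fragment in the radiation libraries (28246, 28418 and 28168) than in the control libraries (26625, 26352 and 26703). When every library was thinned to 14840283 fragments the counts were 27950, 28000 and 27812 genes in radiation and 26453, 26148 and 26703 genes in control. The part of these differences in the results below was not tested. In bulk RNA, fewer cells expressing a gene and less of its RNA per cell cannot be told apart.

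**Figure D1:**
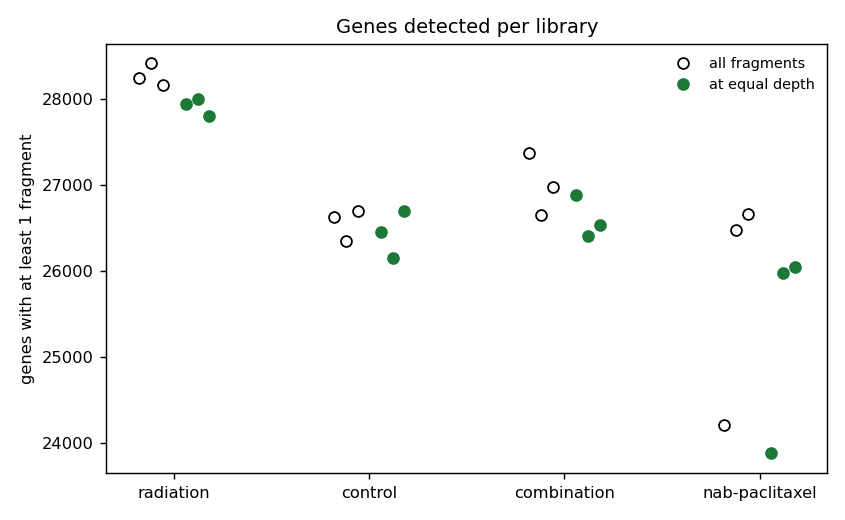
Genes with at least 1 fragment in each library (y axis, number of genes, axis not starting at 0) for radiation, control, combination and nab-paclitaxel, with all fragments (open points) and after thinning each library to 14840283 fragments (filled points). The 3 radiation libraries lie above all control libraries in both counts, and nab-paclitaxel 1 is the lowest library.

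Radiation changed the level of 807 genes (5.93% of those tested), of which 337 rose (2.48%) and 470 fell (3.45%). Counts of list members below are to be read beside these shares. Most changes were small: the median size among the called genes was 0.52 on the log2 scale, and 38 genes moved by at least 1. The p53 target, DNA replication, mitosis and cell cycle, homologous recombination with Fanconi and checkpoint, and replication-dependent histone lists held 167 of the called genes, 29 that rose and 138 that fell. Outside these lists 640 genes were called, 308 that rose and 332 that fell, and 19 of the rises and 11 of the falls were of at least 1. Across all tested genes the median difference was -0.02, and in 28.4% of them the radiation and control libraries did not overlap. The number of calls depended on which libraries entered the fit. It was 320 to 337 without any 1 radiation library, 476 without control 1, 784 without control 2, 569 without control 3 and 1305 without nab-paclitaxel 1, which serves only the shared estimate of spread. Without control 2, nab-paclitaxel 1 and combination 2, chosen because earlier results of these data had shown them to stand apart, 2947 genes were called, 1222 that rose and 1725 that fell. Under quantile normalization 49.95% of the calls were rises, against 41.76% in the fit reported here.

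**Figure D2:**
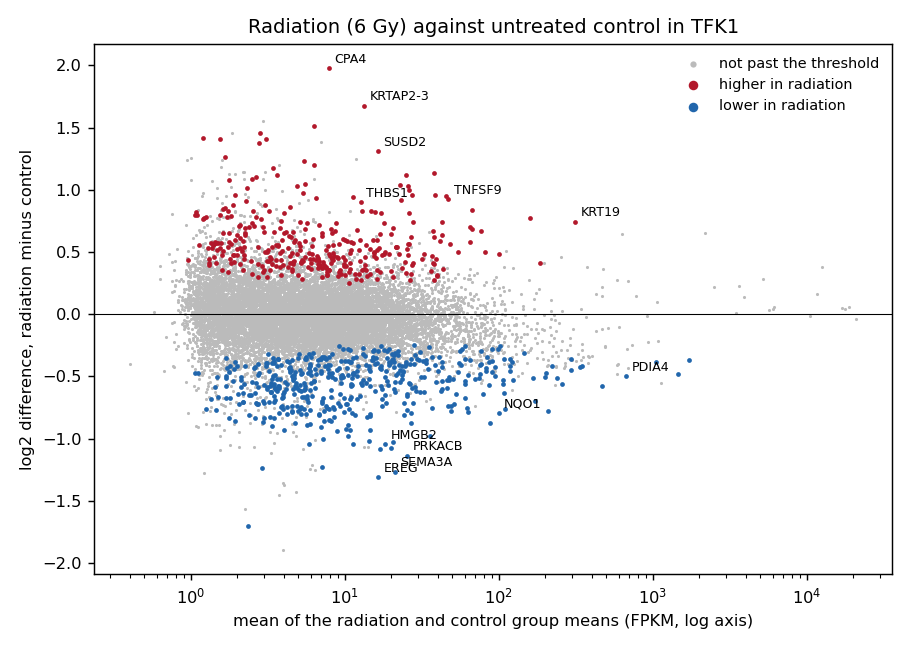
Log2 difference, radiation minus control (y axis), against the mean of the radiation and control group means in FPKM (x axis, log scale) for the 13609 tested genes. Red points rose, blue points fell and grey points did not pass an adjusted p of 0.05; CPA4 stands highest of the called genes, and most falls lie between -1 and -0.25.

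The largest rise belonged to CPA4, a secreted metallocarboxypeptidase, and 2 keratin-associated genes were among the 15 largest rises. CPA4 measured 13.2, 13.5 and 12.7 FPKM in the radiation libraries, against 3.14, 2.27 and 2.41 FPKM in the control libraries. All 3 radiation libraries lay far above all control libraries (1.98 ± 0.10, adjusted p = 5.77e-06). KRTAP2-3, a keratin-associated protein of hair, measured 21.1, 20.1 and 21.6 FPKM in the radiation libraries, against 5.38, 6.18 and 6.05 FPKM in the control libraries (1.68 ± 0.13, adjusted p = 1.17e-04). Its neighbour KRTAP2-4 was lower, with 5.59, 4.54 and 4.48 FPKM in the radiation libraries, against 0.739, 0.938 and 2.16 FPKM in the control libraries (1.41 ± 0.18, adjusted p = 0.00173), and control 3 was the highest control library there. The sequences of KRTAP2-3 and KRTAP2-4 share 39.7% and 52.6% of their 50-base windows with KRTAP2-1 and KRTAP2-2, so how reads were split among these copies is uncertain. SUSD2, a sushi domain membrane protein, measured 23.8, 23.7 and 23.6 FPKM in the radiation libraries, against 9.73, 6.60 and 11.1 FPKM in the control libraries. The radiation libraries were nearly equal and the control libraries spread more widely without reaching them (1.31 ± 0.16, adjusted p = 0.00143). SERPINB5, which encodes the serpin maspin, had 20.3 ± 2.21 FPKM in radiation, against 11.03 ± 1.42 FPKM in control (0.83 ± 0.14, adjusted p = 0.00643).

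Of 138 keratin-associated and cornified envelope genes, 18 were tested. Of these, 8 rose (beside 2.48% of all tested genes), 1 fell and 9 missed the threshold, with a median log2 difference of 0.18. The list was chosen with earlier results known and also holds CPA4, a carboxypeptidase. A member can pass the filter through the group where it is high, so the count is a description. Besides CPA4, the 2 KRTAP2 genes and SERPINB5, the members that rose were the keratin-associated KRTAP3-1 (0.76), the transglutaminase TGM2 (0.54) and the secreted serine proteases KLK5 (0.86) and KLK6 (0.56). SLPI, an inhibitor of secreted proteases, fell (-0.86). Among 9 tested keratins, 2 rose, 0 fell and 7 missed the threshold, with a median log2 difference of 0.28. KRT19, the keratin of simple and biliary epithelium, was the most abundant of the called keratins and measured 373, 418 and 382 FPKM in the radiation libraries, against 247, 199 and 255 FPKM in the control libraries (0.74 ± 0.12, adjusted p = 0.00584). KRT15, a keratin of basal epithelial cells, measured 2.19, 2.63 and 2.14 FPKM in the radiation libraries, against 1.28, 1.18 and 1.19 FPKM in the control libraries (0.58 ± 0.09, adjusted p = 0.00528). Control 2 was the lowest control library for KRT19, and both keratins kept their groups apart. KRT8 and KRT18, the keratin pair of simple epithelium, averaged higher in radiation (292 ± 12.5 and 224 ± 5.06 FPKM) than in control (216 ± 47.4 and 170.4 ± 31.9 FPKM), a difference that did not pass. The calls of CPA4, KRTAP2-3, KRTAP2-4, SUSD2, SERPINB5, KRT19 and KRT15 held when any 1 of the 12 libraries was left out. Calls ended for KLK5 without radiation 2 (adjusted p = 0.0543) and for TGM2 without radiation 1, 2 or 3 (adjusted p up to 0.0813). Calls ended for KLK6 without control 3 or radiation 1, 2 or 3 (adjusted p up to 0.0861). Those of KRTAP3-1 and SLPI held in 3 and 7 of these 12 fits. The rises of the keratin-associated list numbered 4 (without radiation 2) to 8 (without nab-paclitaxel 1 or 2 or combination 2).

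**Figure D3:**
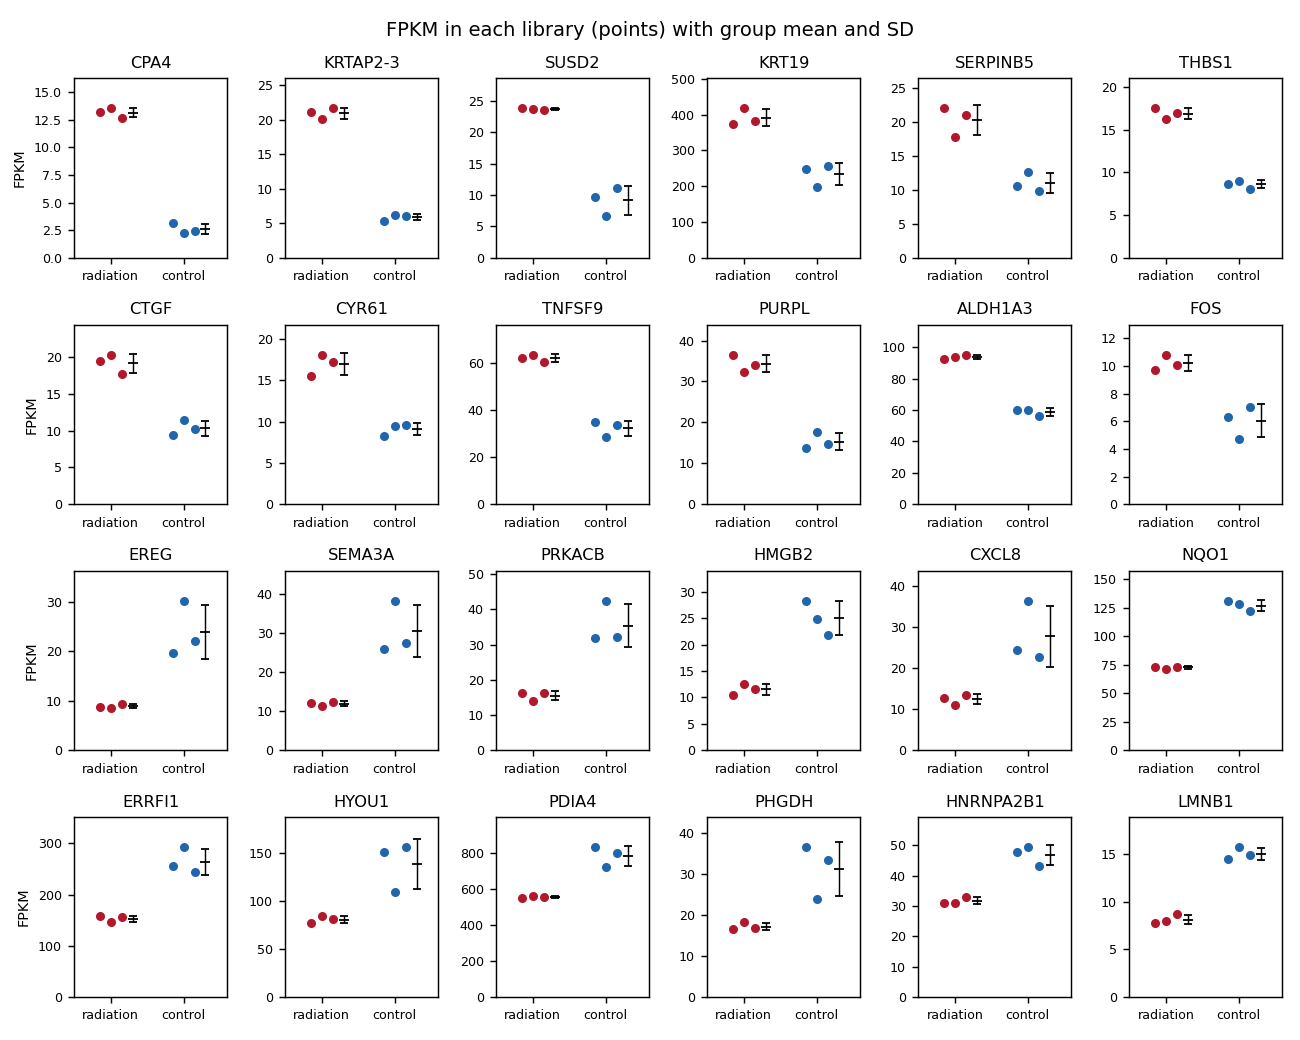
FPKM in each library (y axis, starting at 0 in each panel) of 24 genes, radiation (red) left of control (blue), with the group mean and SD as bars (n = 3). In every panel the 3 radiation points lie on 1 side of the 3 control points, and the gap is widest relative to the control level in CPA4 and KRTAP2-3.

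Some matricellular and basement membrane genes rose and others fell. THBS1, the matricellular glycoprotein thrombospondin 1, measured 17.5, 16.2 and 16.9 FPKM in the radiation libraries, against 8.63, 9.04 and 8.10 FPKM in the control libraries (0.90 ± 0.08, adjusted p = 1.94e-04). TIMP2, an inhibitor of matrix metalloproteinases, measured 58.4, 57.5 and 58.1 FPKM in the radiation libraries, against 37.3, 40.2 and 39.3 FPKM in the control libraries (0.56 ± 0.07, adjusted p = 0.00111). The 2 groups were well apart in both genes. Of 31 tested extracellular protease, inhibitor and matrix genes, 5 rose, 1 fell and 25 missed the threshold, with a median log2 difference of 0.06, CPA4 and SUSD2 being counted here too. The lysyl oxidase-like enzyme LOXL2 rose (0.68), and the collagen-binding glycoprotein SPARC fell (-0.53). Of 26 integrins and laminins, 2 rose, 1 fell and 23 missed the threshold, with a median log2 difference of 0.01. The rises included the laminin chain LAMA3 (0.65 ± 0.09, adjusted p = 0.00319), and the fall was the laminin chain LAMB1 (-0.25 ± 0.07, adjusted p = 0.0437). Tight junction genes had 0 calls among 20, and the cadherin and desmosome list had 1 fall among 25, the epithelial splicing regulator ESRP1 (-0.74 ± 0.11, adjusted p = 0.00428). The calls of THBS1, TIMP2, LAMA3, ESRP1 and SPARC held when any 1 of the 12 libraries was left out. The calls of LOXL2 and LAMB1 held in 4 and 1 of these 12 fits.

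CTGF and CYR61, secreted matricellular proteins whose genes are standard targets of YAP and TEAD, rose by nearly the same amount. CTGF measured 19.4, 20.3 and 17.7 FPKM in the radiation libraries, against 9.42, 11.4 and 10.2 FPKM in the control libraries (0.83 ± 0.11, adjusted p = 0.00171). CYR61 measured 15.6, 18.1 and 17.2 FPKM in the radiation libraries, against 8.26, 9.47 and 9.54 FPKM in the control libraries (0.83 ± 0.11, adjusted p = 0.00213). Of 26 tested YAP and TEAD targets, 4 rose, 0 fell and 22 missed the threshold, with a median log2 difference of 0.09. The other rises were GADD45B, a stress-induced growth arrest gene (0.74 ± 0.18, adjusted p = 0.0355), and NF2, which encodes merlin, an activator of the Hippo kinases that restrain YAP (0.53 ± 0.14, adjusted p = 0.0472). The letters GGAATG, the core of the TEAD binding motif, were searched on both strands of the 250 bases before each gene start. They were present in 6 of 20 promoters found for the 26 tested members and in 11.99% of 27305 RefSeq promoters. Of the 4 members that rose, 3 had a promoter in that table and CTGF was the one holding a match, in 3 copies. Its stretch is printed because it carries all 3, with GGAATG in capitals (RefSeq, GRCh38.p14, chr6:131951442-131951561, minus strand, 5′ to 3′).
CTGF: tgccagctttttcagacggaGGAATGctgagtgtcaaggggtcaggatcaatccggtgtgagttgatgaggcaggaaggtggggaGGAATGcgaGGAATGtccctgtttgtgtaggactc
A match describes the letters and not a bound site. The calls of CTGF and CYR61 held when any 1 of the 12 libraries was left out. Those of GADD45B and NF2 held in 5 and 3 of these 12 fits. The rises of the YAP and TEAD list numbered 2 (without control 3, radiation 1, 2 or 3 or combination 3) to 7 (without nab-paclitaxel 1).

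Actin genes divided. Of 39 actin cytoskeleton and SRF targets, 5 rose, 2 fell and 32 missed the threshold, with a median log2 difference of 0.02. The 2 falls were the cytoplasmic actins ACTB, at 300.0, 292 and 296 FPKM in the radiation libraries, against 401, 390.3 and 393 FPKM in the control libraries, and ACTG1 (-0.38). The rises included the LIM domain protein FHL2 (0.50 ± 0.10, adjusted p = 0.0115), the actin cross-linking protein LIMA1 (0.48 ± 0.10, adjusted p = 0.0154) and the smooth muscle actin ACTA2 (0.58 ± 0.13, adjusted p = 0.0214), the last at 1.69, 2.07 and 2.01 FPKM in the radiation libraries, against 0.949, 0.766 and 1.18 FPKM in the control libraries. The falls numbered 0 and the rises 6 under quantile normalization. Calls ended for FHL2 without radiation 1 or 3 (adjusted p up to 0.058) and for LIMA1 without control 1 or 3 or radiation 1, 2 or 3 (adjusted p up to 0.0696). Calls ended for ACTA2 without control 1 or 2 or radiation 2 or 3 (adjusted p up to 0.0998). ACTG1 held its call in 5 of these 12 fits. The rises of the list numbered 0 (without radiation 3) to 6 (without nab-paclitaxel 1).

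Ligands of the EGF receptor moved in both directions. These ligands are shed from the cell surface and activate the receptor, whose downstream MAP kinases induce both immediate early genes and their own inhibitors. EREG, which encodes the ligand epiregulin, measured 8.87, 8.63 and 9.31 FPKM in the radiation libraries, against 19.7, 30.2 and 22.1 FPKM in the control libraries. It had the largest fall of any protein-coding gene named here, and control 2 was the highest control library (-1.31 ± 0.16, adjusted p = 0.0012). AREG, the ligand amphiregulin, measured 85.3, 87.8 and 88.9 FPKM in the radiation libraries, against 127, 130.4 and 122 FPKM in the control libraries (-0.53 ± 0.12, adjusted p = 0.0286). HBEGF, heparin-binding EGF-like growth factor, rose and measured 6.15, 5.74 and 6.75 FPKM in the radiation libraries, against 4.06, 4.19 and 3.84 FPKM in the control libraries (0.52 ± 0.08, adjusted p = 0.00439). ERRFI1, a feedback inhibitor that binds the receptor's kinase, fell and measured 157, 147 and 155 FPKM in the radiation libraries, against 257, 292 and 244 FPKM in the control libraries (-0.78 ± 0.09, adjusted p = 0.00111). Of 11 tested receptors, ligands and inhibitors, 1 rose, 3 fell and 7 missed the threshold, with a median log2 difference of -0.19. The calls of EREG, HBEGF and ERRFI1 held when any 1 of the 12 libraries was left out. Calls ended for AREG without control 1, 2 or 3 or radiation 1, 2 or 3 (adjusted p up to 0.110).

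MAP kinase feedback genes were split between rises and falls, 9 of 22 being called. On this list 4 rose, 5 fell and 13 missed the threshold, with a median log2 difference of -0.03. The falls were DUSP6, a phosphatase specific to ERK (-0.50 ± 0.07, adjusted p = 0.00252), the receptor signalling inhibitor SPRY4 (-0.50 ± 0.08, adjusted p = 0.00408), the ERK-responsive gene IER3 (-0.58 ± 0.09, adjusted p = 0.00486) and the ETS factors ETV4 (-0.63) and ETV5 (-0.31). The rises were DUSP10, which acts on p38 and JNK (0.58 ± 0.09, adjusted p = 0.00407), and the phosphatases DUSP1 (0.43), DUSP4 (0.37) and DUSP14 (0.35). DUSP6 measured 76.3, 78.4 and 80.9 FPKM in the radiation libraries, against 114, 113 and 108 FPKM in the control libraries, and IER3, the most abundant of them, measured 385, 376 and 368 FPKM in the radiation libraries, against 550.3, 563 and 574 FPKM in the control libraries. In both, every radiation library lay below every control library. Of 27 AP-1 and immediate early genes, 7 rose, 1 fell and 19 missed the threshold, with a median log2 difference of 0.18. FOS measured 9.72, 10.8 and 10.1 FPKM in the radiation libraries, against 6.34, 4.73 and 7.05 FPKM in the control libraries (0.68 ± 0.12, adjusted p = 0.00686). FOSL2 (0.60 ± 0.10, adjusted p = 0.00667), ATF3 (0.56 ± 0.07, adjusted p = 0.00178), EGR2 (0.59 ± 0.11, adjusted p = 0.0084), JUN (0.67), KLF6 (0.30) and ARC (0.46) rose, and the small MAF protein MAFG fell (-0.28). The calls of DUSP6, SPRY4, IER3, DUSP10, DUSP1, FOS, FOSL2, ATF3 and EGR2 held when any 1 of the 12 libraries was left out. DUSP4 held its call in 8 of these 12 fits, DUSP14 in 7, ETV4 in 7, ETV5 in 8, JUN in 9, KLF6 in 8, ARC in 4 and MAFG in 7. The MAP kinase feedback rises numbered 2 (without control 1 or radiation 1, 2 or 3) to 4 (without control 3, nab-paclitaxel 1, 2 or 3 or combination 1, 2 or 3) and the falls 3 (without control 1 or radiation 1, 2 or 3) to 5 (without control 2, nab-paclitaxel 1, 2 or 3 or combination 1, 2 or 3). The rises of the AP-1 list numbered 4 (without radiation 1, 2 or 3) to 8 (without nab-paclitaxel 1).

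A minority of the genes that serve protein folding in the endoplasmic reticulum and the supply of amino acids fell after radiation, and most did not pass. Chaperone genes of the reticulum are known to be induced through a promoter element read by ATF6 and XBP1, and amino acid genes through one read by ATF4. Of 27 tested chaperones and disulfide isomerases, 0 rose, 9 fell and 18 missed the threshold, with a median log2 difference of -0.36. PDIA4, a disulfide isomerase, measured 548, 558 and 555 FPKM in the radiation libraries, against 830.2, 722 and 796 FPKM in the control libraries (-0.50 ± 0.08, adjusted p = 0.00527). HYOU1, a chaperone of the HSP70 kind, measured 76.3, 84.2 and 80.6 FPKM in the radiation libraries, against 151, 109 and 155 FPKM in the control libraries (-0.76 ± 0.17, adjusted p = 0.0202). Control 2 was the lowest control library in both, and no radiation library reached it. The DnaJ protein DNAJB11 (-0.40 ± 0.07, adjusted p = 0.00649) and the isomerase PDIA6 (-0.36 ± 0.07, adjusted p = 0.0101) fell too. HSPA5, the chief chaperone of the reticulum, lies outside the rule for named genes and was chosen after its values were seen, because its promoter is printed below. It measured 1222, 1191 and 1231 FPKM in the radiation libraries, against 1655, 1808 and 1620 FPKM in the control libraries (-0.48 ± 0.10, adjusted p = 0.021). The other falls were CANX (-0.43), PDIA3 (-0.36), SDF2L1 (-0.54) and UGGT1 (-0.46). In the list for translocation, coats and degradation, 2 of 43 fell and 0 rose (median -0.08), namely HERPUD1 (-0.57 ± 0.09, adjusted p = 0.00482) and SEL1L (-0.42 ± 0.11, adjusted p = 0.0468), both of the degradation machinery.

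The median of the chaperone list was -0.19 under quantile normalization. The count of chaperone genes that fell depended on the scaling and on single libraries, and the 9 falls numbered 2 under quantile normalization and 2 (without radiation 1, 2 or 3) to 12 (without nab-paclitaxel 1). PDIA4 kept its call under quantile normalization (adjusted p = 0.00496), while HSPA5 (adjusted p = 0.513), PDIA6 (adjusted p = 0.112) and HYOU1 (adjusted p = 0.0956) did not. The calls of PDIA4, DNAJB11 and HERPUD1 held when any 1 of the 12 libraries was left out. Calls ended for PDIA6 without radiation 1, 2 or 3 (adjusted p up to 0.0601) and for HYOU1 without control 1 or 3 or radiation 1, 2 or 3 (adjusted p up to 0.084). Calls ended for HSPA5 without control 1 or 2 or radiation 1, 2 or 3 (adjusted p up to 0.0961) and for SEL1L without control 1, 2 or 3, radiation 1, 2 or 3, nab-paclitaxel 2 or 3 or combination 1 or 3 (adjusted p up to 0.174). CANX held its call in 9 of these 12 fits, PDIA3 in 8, SDF2L1 in 5 and UGGT1 in 5. The endoplasmic reticulum stress element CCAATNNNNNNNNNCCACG was found, on either strand, in 6 of 25 promoters of the 27 tested members and in 0.0806% of 27305 RefSeq promoters. Among the 9 members that fell, 8 had a promoter in the table and 2 of these held the element. The other 4 promoters with it belonged to members that did not pass. The 2 stretches are printed because they belong to members that fell, with the element in capitals (RefSeq, GRCh38.p14, 5′ to 3′). They lie at chr9:125241371-125241429 and chr2:10812833-10812891, both on the minus strand.
HSPA5: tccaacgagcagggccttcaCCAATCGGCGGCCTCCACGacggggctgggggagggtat
PDIA6: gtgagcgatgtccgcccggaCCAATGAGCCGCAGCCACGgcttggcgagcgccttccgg
Both match CCAAT and CCACG in the same order and spacing and differ in the 9 letters between.

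Amino acid transporters gave 7 falls among 25 tested and 0 rises, with a median of -0.25. The sodium-coupled transporters of neutral amino acids SLC38A1 (-0.59 ± 0.10, adjusted p = 0.00667) and SLC38A2 (-0.70 ± 0.15, adjusted p = 0.019), the glutamine carrier SLC1A5 (-0.51 ± 0.09, adjusted p = 0.00786) and the cationic carrier SLC7A1 (-0.60 ± 0.11, adjusted p = 0.0093) were among them. SLC38A1 measured 36.5, 36.1 and 37.2 FPKM in the radiation libraries, against 51.2, 64.4 and 52.7 FPKM in the control libraries. Of 23 genes for serine, glycine, one-carbon and non-essential amino acid synthesis, 0 rose, 7 fell and 16 missed the threshold, with a median log2 difference of -0.22. PHGDH, the first enzyme of serine synthesis, measured 16.6, 18.2 and 16.7 FPKM in the radiation libraries, against 36.5, 23.9 and 33.3 FPKM in the control libraries (-0.81 ± 0.15, adjusted p = 0.00911). MTHFD2, a mitochondrial folate enzyme, measured 60.99, 60.01 and 61.8 FPKM in the radiation libraries, against 90.7, 107 and 89.2 FPKM in the control libraries (-0.64 ± 0.10, adjusted p = 0.00375). Control 2 was the lowest control library for PHGDH, as for PDIA4 and HYOU1 but not HSPA5, and stayed above the radiation libraries. The phosphatase PSPH (-0.51 ± 0.11, adjusted p = 0.0193), the aminotransferase GOT1 (-0.48 ± 0.08, adjusted p = 0.00638), PSAT1 (-0.47), GPT2 (-0.39) and the asparagine synthetase ASNS (-0.48) fell. Of 23 aminoacyl-tRNA synthetases, 0 rose, 6 fell and 17 missed the threshold, with a median log2 difference of -0.16, the falls including WARS (-0.38 ± 0.06), YARS (-0.40 ± 0.08), IARS (-0.47 ± 0.10) and MARS (-0.34 ± 0.08). The calls of SLC38A1, SLC1A5, SLC7A1, MTHFD2, GOT1, PHGDH and WARS held when any 1 of the 12 libraries was left out. Calls ended for SLC38A2 and IARS without radiation 1, 2 or 3 (adjusted p up to 0.0861, 0.0871). The falls numbered 3 (without radiation 1, 2 or 3) to 11 (without nab-paclitaxel 1) for the transporters, 3 (without radiation 1, 2 or 3) to 8 (without nab-paclitaxel 1 or combination 2) for the synthesis genes and 1 (without radiation 1, 2 or 3) to 7 (without nab-paclitaxel 1) for the synthetases, which had 2 under quantile normalization. Under that scaling the medians were -0.16 for the transporters, -0.19 for the synthesis genes and -0.10 for the synthetases. PSPH held its call in 7 of these 12 fits, PSAT1 in 6, GPT2 in 7, ASNS in 5, YARS in 8 and MARS in 7.

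The C/EBP-ATF response element was searched as TGATGNAA on both strands. It was found in 5 of 56 promoters of the 71 tested members of these 3 lists and in 3.26% of 27305 RefSeq promoters. Of the 20 members that fell, 15 had a promoter in the table and 3 held a match. Those 3 stretches are printed, with the match in capitals, which reads TGATGCAA on the strand of SLC1A5 and TTGCATCA, its reverse complement, in GOT1 and IARS (RefSeq, GRCh38.p14, 5′ to 3′). They lie at chr19:46784884-46784931, chr10:99430795-99430842 and chr9:92293698-92293730, all on the minus strand.
SLC1A5: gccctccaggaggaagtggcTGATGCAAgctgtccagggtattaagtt
GOT1: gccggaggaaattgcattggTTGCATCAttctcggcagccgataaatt
IARS: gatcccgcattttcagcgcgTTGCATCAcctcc
PDIA6, SLC1A5, MTHFD2 and GOT1 share over 20% of their 50-base windows with transcripts of the opposite strand, as do ACTA2, DUSP6 and IER3 above and RBBP4, SUV39H1, CERS2, ALDH1A3, EFNB2, TUBA1B and TUBA4A below. The strand setting of the counting is not given, so the values of these 14 genes are uncertain.

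RNA-binding proteins of splicing included 14 falls. Of 43 tested SR proteins, hnRNPs and related factors, 0 rose, 14 fell and 29 missed the threshold, with a median log2 difference of -0.30. HNRNPA2B1, an hnRNP of nuclear RNA packaging, measured 31.1, 31.04 and 33.1 FPKM in the radiation libraries, against 47.9, 49.4 and 43.1 FPKM in the control libraries (-0.55 ± 0.08, adjusted p = 0.00315). HNRNPM (-0.50 ± 0.09, adjusted p = 0.00681), HNRNPH1 (-0.53 ± 0.10, adjusted p = 0.00895) and the SR protein SRSF4 (-0.37 ± 0.06, adjusted p = 0.00685) fell as well. The other falls were HNRNPA1, HNRNPA3, HNRNPF, HNRNPH3, HNRNPR, HNRNPU, SRSF1, SRSF7, TRA2B and the pseudogene HNRNPA1P48, which is close in sequence to its parent gene. The calls of HNRNPA2B1, HNRNPM, HNRNPH1 and SRSF4 held when any 1 of the 12 libraries was left out. HNRNPA1 held its call in 7 of these 12 fits, HNRNPA3 in 10, HNRNPF in 9, HNRNPH3 in 7, HNRNPR in 8, HNRNPU in 9, SRSF1 in 9, SRSF7 in 7, TRA2B in 4 and HNRNPA1P48 in 3. The falls of the list numbered 4 (without radiation 1 or 2) to 22 (without nab-paclitaxel 1). Ribosome biogenesis gave 3 falls among 61 tested genes and 0 rises (median -0.10), the nucleolar protein NCL (-0.38 ± 0.07, adjusted p = 0.012), the pseudouridine synthase DKC1 (-0.39 ± 0.08, adjusted p = 0.0169) and the RNA polymerase I factor UBTF (-0.50 ± 0.13, adjusted p = 0.0377). Calls ended for NCL without control 1 or radiation 1 or 2 (adjusted p up to 0.0661) and for DKC1 without control 1 or radiation 1, 2 or 3 (adjusted p up to 0.0802). Calls ended for UBTF without control 1 or 3, radiation 1, 2 or 3 or nab-paclitaxel 3 (adjusted p up to 0.124). The 24 snoRNA host genes had 0 calls, and their most abundant members RACK1 (-0.23 ± 0.11, adjusted p = 0.273) and GAS5 (-0.13 ± 0.10, adjusted p = 0.535) did not pass.

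A minority of the genes of chromatin structure and the nuclear envelope fell. LMNB1, which encodes lamin B1 of the nuclear lamina, measured 7.77, 7.96 and 8.67 FPKM in the radiation libraries, against 14.5, 15.7 and 14.9 FPKM in the control libraries. The radiation level was far lower in every library, and the groups did not come near each other (-0.81 ± 0.08, adjusted p = 4.89e-04). Of 44 lamina, envelope and pore genes, 0 rose, 6 fell and 38 missed the threshold, with a median log2 difference of -0.20, the others being the lamin B receptor LBR (-0.52 ± 0.12, adjusted p = 0.0294) and the pore genes NUP50 (-0.35 ± 0.07, adjusted p = 0.0194), NUP62CL (-0.61), NUP153 (-0.40) and NUP35 (-0.47). HMGB2, a chromatin protein that bends DNA, measured 10.5, 12.6 and 11.5 FPKM in the radiation libraries, against 28.2, 24.7 and 21.8 FPKM in the control libraries (-1.04 ± 0.12, adjusted p = 8.83e-04). Its relatives HMGN2 (-0.63 ± 0.10, adjusted p = 0.00514) and HMGB1 (-0.60 ± 0.12, adjusted p = 0.0159) and the histone chaperone subunit SSRP1 (-0.42 ± 0.09, adjusted p = 0.017) also fell, and on that list 0 rose, 4 fell and 10 missed the threshold, with a median log2 difference of -0.13. Of 44 DNA methylation and Polycomb genes, 0 rose, 4 fell and 40 missed the threshold, with a median log2 difference of -0.15. The falls were UHRF1, which guides maintenance methylation (-0.74 ± 0.12, adjusted p = 0.00599), the remodeller HELLS (-0.53 ± 0.12), the histone-binding RBBP4 (-0.47 ± 0.09) and the methyltransferase SUV39H1 (-0.47 ± 0.11). Among 9 replacement and linker histones, H2AFV fell (-0.49 ± 0.10, adjusted p = 0.0153), the list's median being -0.33. UHRF1 shares 25.7% of its windows with another transcript. The calls of LMNB1, HMGB2, HMGN2 and UHRF1 held when any 1 of the 12 libraries was left out. Calls ended for LBR without control 1 or 2 or radiation 1, 2 or 3 (adjusted p up to 0.106) and for NUP50 without control 3 or radiation 1, 2 or 3 (adjusted p up to 0.0976). Calls ended for HMGB1 without control 1 or radiation 1, 2 or 3 (adjusted p up to 0.0725) and for SSRP1 without control 1 or 3 or radiation 1, 2 or 3 (adjusted p up to 0.080). Calls ended for H2AFV without radiation 1 or 2 (adjusted p up to 0.0794). HELLS held its call in 8 of these 12 fits, RBBP4 in 11, SUV39H1 in 7, NUP62CL in 10, NUP153 in 6 and NUP35 in 2. The falls of the DNA methylation and Polycomb list numbered 2 (without radiation 1, 2 or 3) to 9 (without nab-paclitaxel 1), and those of the high mobility group list 2 (without control 1 or radiation 1, 2 or 3) to 5 (without nab-paclitaxel 1). The falls of the lamina list numbered 1 (without radiation 2 or 3) to 10 (without nab-paclitaxel 1).

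Tubulins, whose polymers are the target of paclitaxel, moved in both directions without any drug. TUBB measured 87.5, 84.2 and 86.3 FPKM in the radiation libraries, against 126, 127 and 129.6 FPKM in the control libraries (-0.56 ± 0.07, adjusted p = 0.00135). TUBA1B, an alpha tubulin, measured 23.6, 24.2 and 23.6 FPKM in the radiation libraries, against 41.2, 30.9 and 40.6 FPKM in the control libraries (-0.63 ± 0.11, adjusted p = 0.00725). TUBA4A rose and measured 10.9, 9.58 and 10.1 FPKM in the radiation libraries, against 6.51, 6.71 and 6.60 FPKM in the control libraries (0.56 ± 0.11, adjusted p = 0.0109). Of 16 tested tubulins, 1 rose, 2 fell and 13 missed the threshold, with a median log2 difference of 0.01. TUBA1B shares 31.5% of its windows with TUBA1A, and both alpha tubulins overlap transcripts of the opposite strand. The calls of TUBB and TUBA1B held when any 1 of the 12 libraries was left out. Calls ended for TUBA4A without radiation 1 (adjusted p = 0.0585).

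Antioxidant genes under the control of NRF2 included 5 falls. NQO1, the quinone reductase, measured 73.5, 71.5 and 73.1 FPKM in the radiation libraries, against 131, 128 and 122 FPKM in the control libraries. It stood near 73 FPKM in each radiation library, with every control library above 120 FPKM (-0.80 ± 0.09, adjusted p = 8.19e-04). SLC7A11, which imports cystine for glutathione synthesis (-0.76 ± 0.18, adjusted p = 0.0343), the glutathione reductase GSR (-0.30 ± 0.07, adjusted p = 0.0335), the thioredoxin reductase TXNRD1 (-0.25) and the export pump ABCC2 (-0.37 ± 0.07, adjusted p = 0.00956) fell too. On this list of 40, 0 rose, 5 fell and 35 missed the threshold, with a median log2 difference of -0.06. Under quantile normalization 1 rose and 3 fell, and the median was 0.05. ABCC3, an export pump of bile duct cells, fell (-0.53 ± 0.11, adjusted p = 0.0156), so that of 24 ABC transporters 0 rose, 2 fell and 22 missed the threshold, with a median log2 difference of 0.01. Of 22 metallothioneins and zinc transporters, the importer SLC39A14 fell (-0.25 ± 0.07, adjusted p = 0.0436) and 0 rose. The call of NQO1 held when any 1 of the 12 libraries was left out. Calls ended for SLC7A11 without control 2 or 3, radiation 1, 2 or 3 or combination 1 (adjusted p up to 0.128) and for GSR without control 1 or 3, radiation 1, 2 or 3 or combination 1 or 3 (adjusted p up to 0.130). Calls ended for ABCC2 without radiation 2 or 3 (adjusted p up to 0.0557) and for ABCC3 without control 1 or 3 or radiation 1, 2 or 3 (adjusted p up to 0.0692). Calls ended for SLC39A14 without control 1, 2 or 3, radiation 1, 2 or 3, nab-paclitaxel 2 or 3 or combination 1, 2 or 3 (adjusted p up to 0.167). TXNRD1 held its call in 1 of these 12 fits. The falls of the NRF2 list numbered 1 (without radiation 2 or 3) to 6 (without nab-paclitaxel 1).

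Of the lipid, sugar and aldehyde lists, 2 of 39 sterol and fatty acid genes, 4 of 29 ceramide and sphingolipid genes, 5 of 37 glycolysis and hypoxia genes and 3 of 13 aldehyde dehydrogenases were called, beside 5.93% of all tested genes. SREBF1, the transcription factor of lipid synthesis (-0.60 ± 0.09, adjusted p = 0.00428), and SCD, the desaturase of stearate (-0.46 ± 0.08, adjusted p = 0.00801), fell, and the remaining 37 of 39 sterol and fatty acid genes did not pass (median -0.02). SMPD1, the acid sphingomyelinase that releases ceramide, rose and measured 3.21, 4.80 and 4.73 FPKM in the radiation libraries, against 1.69, 1.37 and 2.50 FPKM in the control libraries (0.88 ± 0.18, adjusted p = 0.0149). The ceramidase ACER2 (0.57 ± 0.11, adjusted p = 0.00956) and the ceramide synthase CERS5 (0.34 ± 0.07, adjusted p = 0.0169) rose, and CERS2, a synthase of very long chain ceramides, fell (-0.35 ± 0.07, adjusted p = 0.0161), among 29 such genes. HK2, a hexokinase, measured 7.24, 7.14 and 7.93 FPKM in the radiation libraries, against 13.01, 12.3 and 12.1 FPKM in the control libraries (-0.67 ± 0.08, adjusted p = 0.00121). SLC2A3, the glucose transporter GLUT3, measured 9.0, 8.32 and 8.62 FPKM in the radiation libraries, against 4.38, 4.98 and 5.22 FPKM in the control libraries (0.72 ± 0.07, adjusted p = 5.13e-04), and 21.4% of its windows are shared with SLC2A14. HK2 was lower and SLC2A3 higher in every radiation library than in any control library. On the glycolysis and hypoxia list of 37, 4 rose, 1 fell and 32 missed the threshold, with a median log2 difference of 0.03, ANGPTL4 (0.82 ± 0.18), ALDOC (0.48 ± 0.12) and ADM (0.39) being the other rises. ALDH1A3, which makes retinoic acid, measured 92.9, 93.7 and 95.3 FPKM in the radiation libraries, against 60.4, 59.8 and 56.1 FPKM in the control libraries (0.67 ± 0.07, adjusted p = 4.89e-04). The mitochondrial ALDH5A1 (-0.46 ± 0.07, adjusted p = 0.00549) and ALDH16A1 (-0.55 ± 0.13, adjusted p = 0.0261) fell among 13 aldehyde dehydrogenases. The calls of SREBF1, SCD, HK2, SLC2A3, ALDH1A3 and ALDH5A1 held when any 1 of the 12 libraries was left out. Calls ended for SMPD1 without control 1 or radiation 2 or 3 (adjusted p up to 0.0757) and for ACER2 without radiation 2 (adjusted p = 0.0512). Calls ended for CERS5, CERS2 and ALDH16A1 without control 1 or 3 or radiation 1, 2 or 3 (adjusted p up to 0.079, 0.0794, 0.115) and for ANGPTL4 without radiation 1, 2 or 3 (adjusted p up to 0.0967). Calls ended for ALDOC without control 2 or 3, radiation 1, 2 or 3 or combination 3 (adjusted p up to 0.128). ADM held its call in 3 of these 12 fits. The rises of the glycolysis and hypoxia list numbered 1 (without radiation 1, 2 or 3) to 5 (without nab-paclitaxel 1).

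Of 62 lysosome and autophagy genes, 3 rose, 1 fell and 58 missed the threshold, with a median log2 difference of 0.07. Over all tested genes 5.93% were called, so the count of this list lies near that share. The rises were GLB1, the lysosomal beta-galactosidase (0.35 ± 0.08, adjusted p = 0.0271), the sialidase NEU1 (0.46 ± 0.09, adjusted p = 0.0135) and the proton pump subunit ATP6V0A4 (0.59 ± 0.11, adjusted p = 0.0103), and the fall was LAMP3 (-0.41 ± 0.11, adjusted p = 0.0474). GLB1 measured 17.9, 17.5 and 19.04 FPKM in the radiation libraries, against 14.4, 14.4 and 13.1 FPKM in the control libraries. The rises numbered 0 (without radiation 3) to 7 (without nab-paclitaxel 1). The falls numbered 0 without control 1, 2 or 3, radiation 1, 2 or 3, nab-paclitaxel 3 or combination 1, 2 or 3. They numbered 1 without nab-paclitaxel 1 or 2, so the call of LAMP3 ended in most fits that left out 1 library. Calls ended for GLB1 without control 1 or 3 or radiation 1, 2 or 3 (adjusted p up to 0.123) and for NEU1 without radiation 1 or 3 (adjusted p up to 0.0696). Calls ended for ATP6V0A4 without radiation 2 or 3 (adjusted p up to 0.058). The list of 34 heat shock proteins had 3 rises, 1 fall and a median of -0.03. DNAJB1 (0.36 ± 0.07, adjusted p = 0.00967), HSPA1B (0.52 ± 0.12, adjusted p = 0.0276) and BAG3 (0.35 ± 0.09, adjusted p = 0.0468), all induced by heat shock factor 1, rose, and HSPA9 of the mitochondrial matrix fell (-0.52 ± 0.09, adjusted p = 0.00667). HSPA1B shares 73.5% of its windows with HSPA1A and cannot be told from it with certainty. The call of HSPA9 held when any 1 of the 12 libraries was left out. Calls ended for DNAJB1 without radiation 1 or 2 (adjusted p up to 0.0593) and for HSPA1B without control 1, 2 or 3 or radiation 1, 2 or 3 (adjusted p up to 0.108). Calls ended for BAG3 without control 1 or 2, radiation 1, 2 or 3, nab-paclitaxel 2 or 3 or combination 1 or 3 (adjusted p up to 0.166).

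Housekeeping machinery of mitochondria and protein turnover showed almost no calls. The 75 mitochondrial ribosomal protein genes had 0 (median 0.01), among them MRPS10 (0.07 ± 0.16, adjusted p = 0.878). The 36 proteasome genes had 0 (median -0.03), PSMA7 standing at 80.5 ± 1.34 FPKM in radiation, against 87.8 ± 3.82 FPKM in control (-0.12 ± 0.10, adjusted p = 0.575). Of 79 nuclear genes of the respiratory chain and ATP synthase, 1 rose, the complex I subunit NDUFA2 (0.44 ± 0.11, adjusted p = 0.0465), with a median of 0.03. Calls ended for NDUFA2 without control 1, 2 or 3, radiation 1, 2 or 3 or combination 1 or 3 (adjusted p up to 0.175). Of 36 tested genes of the mitochondrial genome 1 rose, a tRNA gene, and their median was 0.15. The S100 list had 0 calls among 9 (median -0.14), and the clock list 0 among 17 (median -0.04). A gene that did not pass is not shown to be equal in the 2 groups.

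Cytokine genes were mostly low, and the few that were called moved apart. TNFSF9, the 4-1BB ligand that costimulates T cells, measured 61.96, 63.3 and 60.1 FPKM in the radiation libraries, against 34.6, 28.6 and 33.3 FPKM in the control libraries. Each radiation library was far above each control library (0.92 ± 0.09, adjusted p = 3.59e-04). CXCL8, the neutrophil chemokine interleukin 8, measured 12.7, 11.1 and 13.5 FPKM in the radiation libraries, against 24.4, 36.3 and 22.6 FPKM in the control libraries (-1.07 ± 0.22, adjusted p = 0.0146). CXCL1, a chemokine for the same receptor CXCR2, measured 3.75, 2.93 and 3.54 FPKM in the radiation libraries, against 5.67, 7.09 and 6.28 FPKM in the control libraries (-0.74 ± 0.15, adjusted p = 0.0163). The spread of CXCL8 in control was wide, with control 2 highest, and no radiation library reached a control library. Of 11 tested chemokines, interleukins and related ligands, 1 rose, 2 fell and 8 missed the threshold, with a median log2 difference of -0.02. IL20RB, a receptor subunit for interleukins of the IL-10 family, measured 3.38, 3.73 and 3.36 FPKM in the radiation libraries, against 9.72, 7.29 and 7.81 FPKM in the control libraries (-1.04 ± 0.15, adjusted p = 0.00272), the 1 call among 28 cytokine receptors. Among 25 NF-kB genes, the inhibitor TNFAIP3 rose (0.38 ± 0.10, adjusted p = 0.0416) and the subunit gene NFKB1 fell (-0.36 ± 0.09, adjusted p = 0.047). The 24 genes for MHC class I, NKG2D ligands and checkpoint ligands had 0 calls (median 0.08), HLA-C standing at 114 ± 3.38 FPKM in radiation, against 129 ± 20.8 FPKM in control (-0.16 ± 0.13, adjusted p = 0.556). Of 30 BCL2 family, caspase and death receptor genes, 1 fell, BOK (-0.43 ± 0.11, adjusted p = 0.0352), and 0 rose. The calls of TNFSF9 and IL20RB held when any 1 of the 12 libraries was left out. Calls ended for CXCL8 without radiation 1 or 2 (adjusted p up to 0.0707) and for CXCL1 without radiation 2 or 3 (adjusted p up to 0.0827). Calls ended for TNFAIP3 without control 1, 2 or 3, radiation 1, 2 or 3 or combination 1 (adjusted p up to 0.134) and for NFKB1 without control 2 or 3, radiation 1, 2 or 3, nab-paclitaxel 3 or combination 1, 2 or 3 (adjusted p up to 0.168). Calls ended for BOK without control 1 or 3, radiation 1 or 3, nab-paclitaxel 2 or 3 or combination 1 or 3 (adjusted p up to 0.151).

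Guidance and morphogen pathways gave calls in both directions, SEMA3A having the largest difference among them. SEMA3A, a secreted semaphorin that repels axons and endothelial cells, measured 12.1, 11.3 and 12.4 FPKM in the radiation libraries, against 25.96, 38.2 and 27.5 FPKM in the control libraries (-1.27 ± 0.16, adjusted p = 0.00163). The radiation libraries lay close together, and control 2 was the highest control library. EFNB2, the membrane ligand ephrin-B2, rose and measured 12.8, 12.2 and 12.8 FPKM in the radiation libraries, against 7.39, 8.67 and 8.08 FPKM in the control libraries (0.59 ± 0.07, adjusted p = 0.00118). SEMA3C (0.49 ± 0.13, adjusted p = 0.0453), SEMA7A (0.48 ± 0.12, adjusted p = 0.0356) and SEMA6A (0.50) rose, and on this list of 38 4 rose, 1 fell and 33 missed the threshold, with a median log2 difference of 0.06. Of 37 Wnt genes, 4 rose, 1 fell and 32 missed the threshold, with a median log2 difference of 0.05. The ligands WNT16 (0.54 ± 0.11, adjusted p = 0.0123) and WNT7B (0.55 ± 0.13, adjusted p = 0.0281), the feedback scaffold AXIN2 (0.54 ± 0.10, adjusted p = 0.00906) and the receptor FZD4 (0.31) rose, while WLS, the carrier that Wnt ligands need for secretion, fell (-0.45 ± 0.07, adjusted p = 0.00315). AXIN2 shares 30.2% of its windows with another transcript. Of 18 Notch genes, the repressor HES2 (0.66 ± 0.12, adjusted p = 0.00838) and the glycosyltransferase LFNG (0.40 ± 0.09, adjusted p = 0.027) rose and 0 fell. The calls of SEMA3A, EFNB2, WLS and HES2 held when any 1 of the 12 libraries was left out. Calls ended for SEMA3C without control 1 or 3, radiation 1, 2 or 3, nab-paclitaxel 2 or 3 or combination 1 or 3 (adjusted p up to 0.153) and for SEMA7A without control 1, 2 or 3, radiation 1, 2 or 3, nab-paclitaxel 3 or combination 1 or 3 (adjusted p up to 0.128). Calls ended for WNT16 without radiation 1 or 3 (adjusted p up to 0.0634) and for WNT7B without control 2 or radiation 1, 2 or 3 (adjusted p up to 0.114). Calls ended for AXIN2 without radiation 3 (adjusted p = 0.0529) and for LFNG without control 1 or 2 or radiation 1, 2 or 3 (adjusted p up to 0.114). FZD4 held its call in 1 of these 12 fits and SEMA6A in 2. The rises numbered 1 (without control 1 or 3, radiation 1, 2 or 3 or combination 1 or 3) to 4 (without nab-paclitaxel 1) on the semaphorin and ephrin list and 0 (without radiation 3) to 5 (without nab-paclitaxel 1) on the Wnt list.

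Of 38 TGF-beta and BMP genes, 2 rose, 1 fell and 35 missed the threshold, with a median log2 difference of -0.01. This count too lies near the 5.93% called over all tested genes. ID2, an inhibitor of basic helix-loop-helix factors, measured 21.4, 22.3 and 22.3 FPKM in the radiation libraries, against 12.2, 15.2 and 9.42 FPKM in the control libraries (0.82 ± 0.16, adjusted p = 0.0119), BAMBI, a decoy receptor, rose (0.41 ± 0.10, adjusted p = 0.0345) and the activin subunit INHBE fell (-0.65 ± 0.13, adjusted p = 0.0146). Cyclic AMP signalling genes had 2 falls among 24 and 0 rises. PRKACB, a catalytic subunit of protein kinase A, measured 16.2, 13.98 and 16.2 FPKM in the radiation libraries, against 31.9, 42.4 and 32.1 FPKM in the control libraries (-1.14 ± 0.19, adjusted p = 0.00584). The phosphodiesterase PDE4B fell at a low level (-0.42 ± 0.09, adjusted p = 0.0222). Of 21 alpha-arrestin, 14-3-3 and growth-arrest factor genes, 3 rose, 1 fell and 17 missed the threshold, with a median log2 difference of 0.02. KLF15 fell (-0.84 ± 0.11, adjusted p = 0.00212), and the arrestin ARRDC3 (0.52 ± 0.11, adjusted p = 0.0192), the insulin receptor substrate IRS2 (0.41 ± 0.09, adjusted p = 0.0183) and the forkhead factor FOXO1 (0.41 ± 0.10, adjusted p = 0.0388) rose. The calls of PRKACB and KLF15 held when any 1 of the 12 libraries was left out. Calls ended for ID2 without radiation 2 or 3 (adjusted p up to 0.0534) and for BAMBI without control 2 or 3, radiation 1, 2 or 3, nab-paclitaxel 3 or combination 3 (adjusted p up to 0.141). Calls ended for INHBE and IRS2 without control 1 or radiation 1 or 2 (adjusted p up to 0.076, 0.0859) and for PDE4B without control 1 or 2 or radiation 1, 2 or 3 (adjusted p up to 0.0996). Calls ended for ARRDC3 without control 1 or 3 or radiation 1, 2 or 3 (adjusted p up to 0.0807) and for FOXO1 without control 1 or 3, radiation 1, 2 or 3, nab-paclitaxel 3 or combination 3 (adjusted p up to 0.141).

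Transcription factors of the biliary and liver lineage had 6 calls among 14. SOX9, the factor of bile duct identity, measured 95.5, 96.6 and 92.3 FPKM in the radiation libraries, against 65.2, 63.3 and 72.4 FPKM in the control libraries (0.50 ± 0.07, adjusted p = 0.00319). TBX3 measured 10.6, 10.2 and 10.04 FPKM in the radiation libraries, against 5.61, 6.14 and 6.85 FPKM in the control libraries (0.65 ± 0.10, adjusted p = 0.0033). NR2F2 (0.47 ± 0.08, adjusted p = 0.00761) and ELF3 (0.45) rose, and CEBPG (-0.41 ± 0.09, adjusted p = 0.0189) and SOX4 (-0.28) fell, so that 4 rose, 2 fell and 8 missed the threshold, with a median log2 difference of 0.09. Of 304 ZNF genes, 3 rose, 3 fell and 298 missed the threshold, with a median log2 difference of 0.01, ZNF503 standing at 20.8, 24.3 and 22.5 FPKM in the radiation libraries, against 12.3, 11.7 and 15.7 FPKM in the control libraries (0.73 ± 0.12, adjusted p = 0.00576). ZNF367 fell (-0.80 ± 0.19, adjusted p = 0.0277). Mucin, trefoil and secretory genes had 0 calls among 4, cilium assembly genes 1 rise among 46 (BBS4, 0.35 ± 0.09, adjusted p = 0.042), and excision and mismatch repair genes 1 rise, the transcription factor IIH subunit GTF2H5 (0.41 ± 0.09, adjusted p = 0.017), and 1 fall, the glycosylase MUTYH (-0.43 ± 0.11, adjusted p = 0.0379), among 45. The calls of SOX9, TBX3, NR2F2 and ZNF503 held when any 1 of the 12 libraries was left out. Calls ended for CEBPG without radiation 1, 2 or 3 (adjusted p up to 0.0954) and for ZNF367 without control 1, 2 or 3 or radiation 1, 2 or 3 (adjusted p up to 0.122). Calls ended for BBS4 without control 1, 2 or 3, radiation 1, 2 or 3, nab-paclitaxel 2 or 3 or combination 1, 2 or 3 (adjusted p up to 0.174) and for GTF2H5 without control 1 or 3 or radiation 1, 2 or 3 (adjusted p up to 0.0859). Calls ended for MUTYH without control 1 or 3, radiation 1, 2 or 3, nab-paclitaxel 3 or combination 3 (adjusted p up to 0.138). ELF3 held its call in 9 of these 12 fits and SOX4 in 5.

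**Figure D4:**
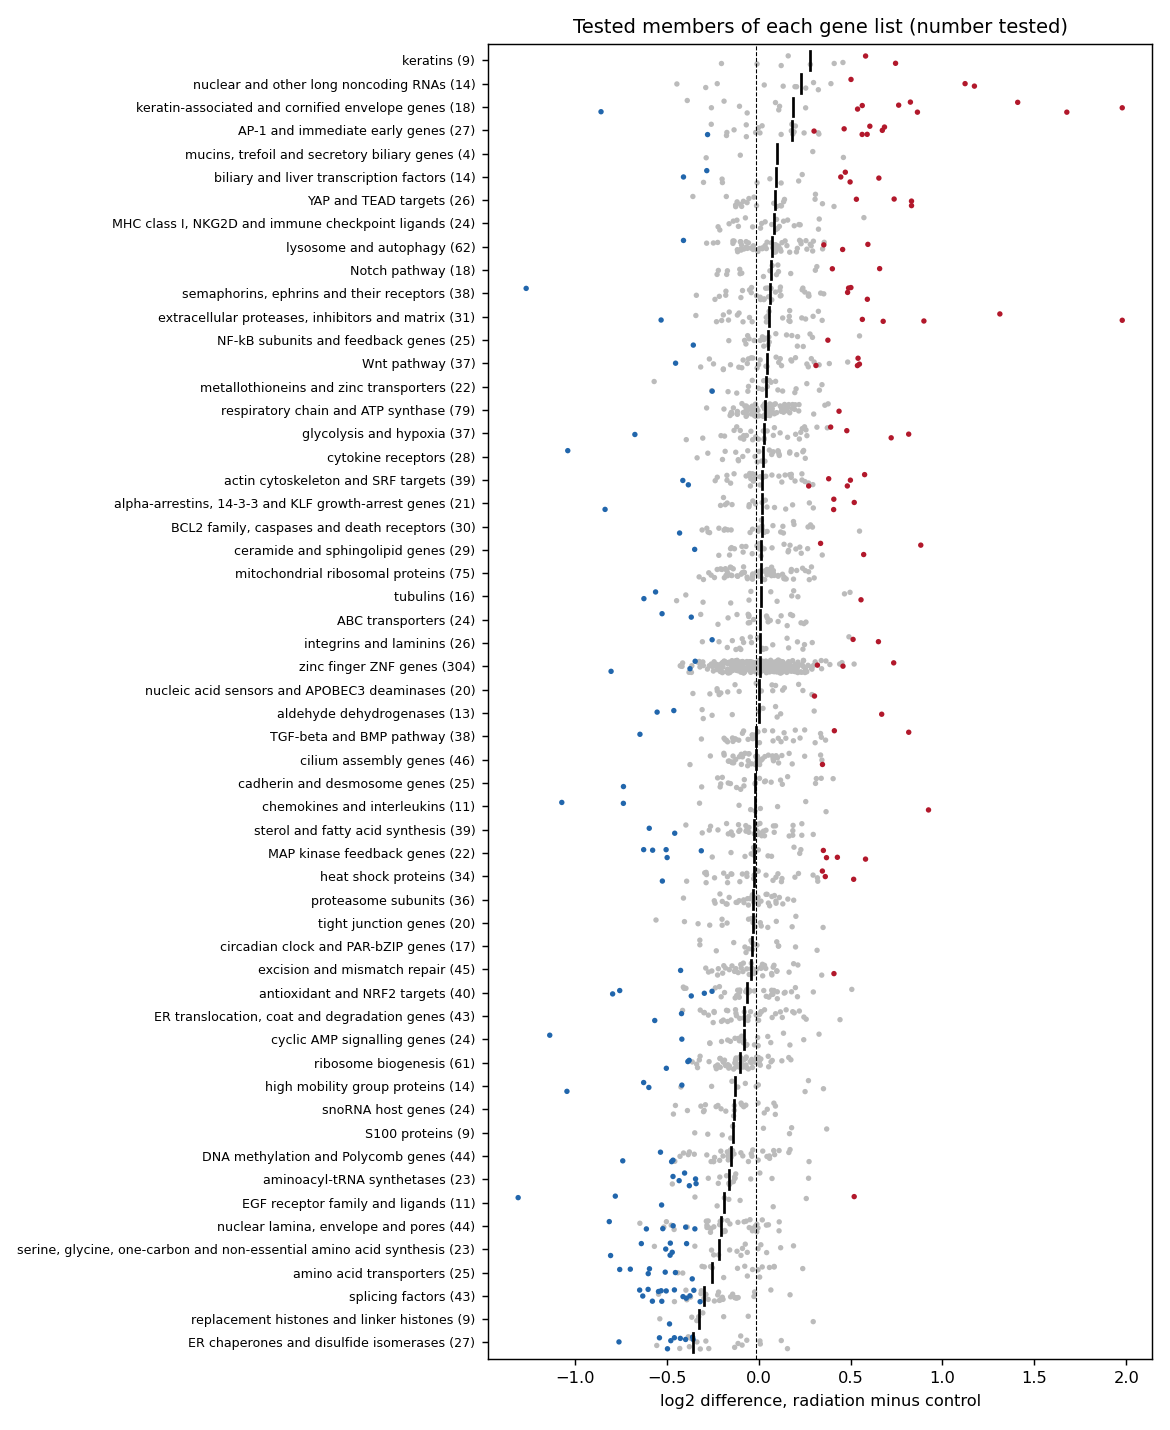
Log2 difference, radiation minus control (x axis), of every tested member (points) of the 56 gene lists, ordered by the list median (black bars), with the number tested in brackets; red points rose, blue points fell, grey points did not pass, and the dashed line is the median of all 13609 genes. The keratin list has the highest median and the endoplasmic reticulum chaperones the lowest, while under quantile normalization the splicing factor list was lowest (-0.23, against -0.19 for the chaperones), and most lists centre near the dashed line.

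Among the remaining coding genes, large falls included the GTPase activating protein ARHGAP18, at 23.2, 22.3 and 25.7 FPKM in the radiation libraries, against 44.3, 57.01 and 42.5 FPKM in the control libraries (-0.97 ± 0.13, adjusted p = 0.00213), and the protocadherin PCDH7 (-0.94 ± 0.16, adjusted p = 0.00725). ITPRID2, whose product binds inositol trisphosphate receptors, was the most abundant of the 15 largest falls and measured 62.8, 59.6 and 62.3 FPKM in the radiation libraries, against 107, 133 and 104 FPKM in the control libraries (-0.88 ± 0.11, adjusted p = 0.00161). CYSRT1 was among the large rises, at 6.86, 8.92 and 8.14 FPKM in the radiation libraries, against 3.05, 2.21 and 3.26 FPKM in the control libraries (1.23 ± 0.20, adjusted p = 0.00599). The groups stood apart in all 4 genes. The calls of ARHGAP18, PCDH7, ITPRID2 and CYSRT1 held when any 1 of the 12 libraries was left out.

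Among 1186 tested long noncoding RNAs, 45 rose and 18 fell, with a median of 0.05. PURPL, an RNA induced by p53, measured 36.5, 32.4 and 34.1 FPKM in the radiation libraries, against 13.7, 17.5 and 14.7 FPKM in the control libraries (1.12 ± 0.12, adjusted p = 7.50e-04). PINCR, another p53-induced noncoding RNA, measured 5.06, 4.72 and 5.68 FPKM in the radiation libraries, against 1.63, 1.87 and 1.66 FPKM in the control libraries (1.17 ± 0.10, adjusted p = 1.92e-04). NEAT1, the scaffold of nuclear paraspeckles, measured 21.1, 21.9 and 21.9 FPKM in the radiation libraries, against 15.95, 14.9 and 14.1 FPKM in the control libraries (0.50 ± 0.08, adjusted p = 0.00388). In all 3 the groups stood apart. Of the 14 tested members of the nuclear and other long noncoding RNA list, 3 rose, 0 fell and 11 missed the threshold, with a median log2 difference of 0.23. Unnamed long noncoding genes among the 15 largest rises and falls included AC108865.1 (1.20 ± 0.19, adjusted p = 0.00515), AL359853.2 (1.42 ± 0.23, adjusted p = 0.00532) and AC036222.1 (1.12 ± 0.23, adjusted p = 0.0144) upwards, and AC012625.1 (-1.23 ± 0.20, adjusted p = 0.00577), AC078820.1 (-0.92 ± 0.15, adjusted p = 0.00499), AC099850.3 (-1.02) and AC107308.1 (-1.01) downwards. Pseudogenes had 13 rises and 6 falls among 798, with a median of -0.05. The remaining largest changes are short genes or copies whose counts are uncertain: the 5S pseudogene RNA5SP187, both tested loci of the small RNA family RF00019, the microRNA loci MIR6746 and MIR647, APOOP2 and GPX1P1, the last sharing 40.2% of its windows with GPX1 and GPX1P2. The calls of PURPL, PINCR, NEAT1, AC108865.1, AL359853.2, AC012625.1 and AC078820.1 held when any 1 of the 12 libraries was left out. Calls ended for AC036222.1 without radiation 2 or 3 (adjusted p up to 0.0664). Those of AC099850.3 and AC107308.1 ended without control 1 or 2 or radiation 1, 2 or 3 (adjusted p up to 0.106, 0.126).

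The same dose was also given to cells under nab-paclitaxel, and the combination and nab-paclitaxel libraries share no sample with the comparison above. Between those 6 libraries 533 genes were called (3.92% of 13609), 165 that rose (1.21%) and 368 that fell (2.7%), in the fit whose spread is estimated from all 12 libraries. The count was 93 when the 6 libraries were fitted alone, 306 with the replicate block, 177 without combination 3, 274 and 284 without combination 1 and 2, and 323 to 341 without any 1 radiation library or without nab-paclitaxel 2 or 3. The overlaps below rest on the count of 533. In both comparisons 358 genes were called in the same direction, 44.4% of the calls without drug and 67.2% of those with drug, and 0 were called in opposite directions. Of the 640 genes called without drug outside the p53, cell cycle, repair and histone lists, 622 (97.2%) had the same sign with drug, as had 73.5% of all tested genes. Of these 640 genes, 229 were called in the same direction in both, 85 as rises and 144 as falls. A test of the difference between the 2 radiation effects called 0 genes in limma (lowest adjusted p = 0.989, 443 genes with an unadjusted p under 0.05) and 0 by voom on recovered fragments.

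**Figure D5:**
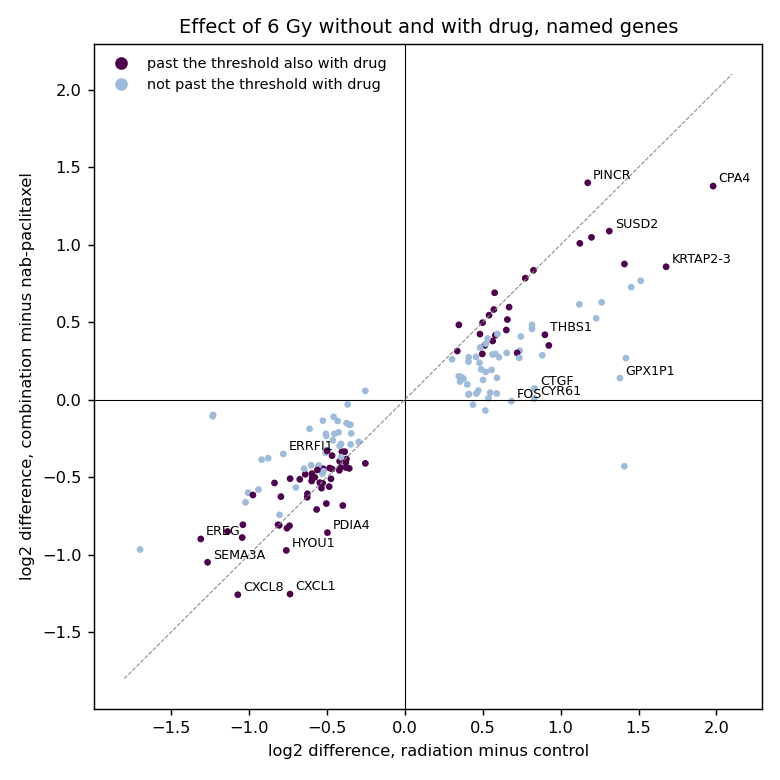
Log2 difference with drug, combination minus nab-paclitaxel (y axis), against the log2 difference without drug, radiation minus control (x axis), for the named genes; dark points also pass an adjusted p of 0.05 with drug, light points do not, and the dashed line marks equal differences. Most points share their sign, and CTGF, CYR61 and FOS lie near 0 on the y axis.

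CPA4 measured 14.6, 13.4 and 13.4 FPKM in the combination libraries, against 5.31, 4.57 and 4.24 FPKM in the nab-paclitaxel libraries (1.38 ± 0.10, adjusted p = 1.51e-04). KRTAP2-3 measured 29.3, 31.5 and 31.4 FPKM in the combination libraries, against 21.1, 15.9 and 13.4 FPKM in the nab-paclitaxel libraries (0.86 ± 0.13, adjusted p = 0.00495). Its difference without drug was 1.68, and the limma test of the difference between the effects did not pass (-0.82, unadjusted p = 8.05e-04, adjusted p = 0.989). For SUSD2 the values were 20.1 ± 2.79 FPKM in the combination, against 8.92 ± 1.33 FPKM with nab-paclitaxel alone (1.09 ± 0.16, adjusted p = 0.0051), and these 3 rises were called in both settings. SERPINB5 (0.83 ± 0.14, adjusted p = 0.00816), ALDH1A3 (0.60 ± 0.07, adjusted p = 0.00121), PURPL (1.01 ± 0.12, adjusted p = 0.00157) and PINCR (1.40 ± 0.10, adjusted p = 1.51e-04) likewise rose. Among the falls called in both settings, PDIA4 had 352 ± 20.9 FPKM in the combination, against 638 ± 11.6 FPKM with nab-paclitaxel alone (-0.86 ± 0.08, adjusted p = 6.47e-04), HYOU1 had 53.97 ± 6.14 FPKM in the combination, against 108 ± 21.3 FPKM with nab-paclitaxel alone (-0.97 ± 0.17, adjusted p = 0.009) and CXCL8 had 10.1 ± 1.09 FPKM in the combination, against 26.3 ± 9.09 FPKM with nab-paclitaxel alone (-1.26 ± 0.22, adjusted p = 0.00971). EREG (-0.90 ± 0.16, adjusted p = 0.0108), SEMA3A (-1.05 ± 0.16, adjusted p = 0.0057), LMNB1 (-0.81 ± 0.08, adjusted p = 7.80e-04), NQO1 (-0.63 ± 0.09, adjusted p = 0.00365) and HNRNPA2B1 (-0.54 ± 0.08, adjusted p = 0.00425) fell as well. The chaperone list had a median of -0.44 with drug and the splicing list one of -0.33.

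Some rises seen without drug were not called with it. CTGF measured 15.5, 14.4 and 15.9 FPKM in the combination libraries, against 17.2, 13.2 and 13.4 FPKM in the nab-paclitaxel libraries (0.07 ± 0.11, adjusted p = 0.814). CYR61 measured 14.01, 11.1 and 13.7 FPKM in the combination libraries, against 11.2, 14.3 and 13.1 FPKM in the nab-paclitaxel libraries (0.01 ± 0.11, adjusted p = 0.989). FOS had 10.7 ± 1.15 FPKM in the combination, against 10.7 ± 0.182 FPKM with nab-paclitaxel alone (-0.01 ± 0.12, adjusted p = 0.985), and the AP-1 list had a median of -0.04. In each of these genes, CTGF, CYR61 and FOS, the combination and nab-paclitaxel libraries overlapped. The test of the difference between the effects did not pass for CTGF (-0.76, unadjusted p = 3.91e-04, adjusted p = 0.989), CYR61 (-0.82, unadjusted p = 2.77e-04, adjusted p = 0.989) or FOS (-0.69, unadjusted p = 0.00148, adjusted p = 0.989), so the effects are not shown to differ. Of the 179 genes picked by the naming rule, 47 had an unadjusted p under 0.05 in that limma test and 0 passed after adjustment. Over all 13609 tested genes the number with an unadjusted p under 0.05 was 443. Most named genes were picked by their difference between radiation and control, which itself enters that test. The count of 47 is therefore a description and no sign that the effects differ. Of the 162 named genes past the threshold without drug 157 had the same sign with it, and 7 of the 15 largest rises and 7 of the 15 largest falls were called there.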

How the data were processed

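The authors deposited 1 table of FPKM values that holds, per the file headers, the lengths of 58735 genes (19951 protein coding) and 12 sample columns. A SMARTer mRNA-seq kit served for the libraries after a Bioanalyzer check of the RNA, per the labels' protocols. The submitters' processing notes name hg38. Aligner, counter and strand setting are not given in the sources used, so antisense and overlapping genes are uncertain. FPKM times gene length fell on whole numbers of 1 step in 100% of the genes checked (tolerance 0.05). The check covered detected genes below a ceiling of fragments and not the most abundant genes. From the steps, fragment numbers of 14840283 to 17992242 per library were recovered. The step sizes show that the deposited FPKM values carry median-of-ratios size factors.

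From these values, limma 3.58.1 in R 4.3.3 was fitted to log2(FPKM + 1) of all 12 libraries in 4 groups, with a trend of variance on level (8 residual and 3.39 prior degrees of freedom), on the 13609 genes averaging 1 FPKM or more. Tests were two-sided, with Benjamini-Hochberg adjustment and a threshold of 0.05. No replicate block was used, as nothing in the labels ties replicate numbers to a shared batch or day. Deviations of same-numbered libraries from their group means correlated at -0.08, -0.20 and -0.10 for radiation and control. They correlated at 0.23, 0.54 and 0.17 for combination and control, and at -0.49 to 0.18 in the other pairs of groups. With 3 libraries per group such correlations cannot exclude a shared batch. The step was tested on simulated data.

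Gene lists and members were chosen with earlier results of these data known. Named genes are the 15 largest rises and 15 largest falls outside the set-aside lists (p53, cell cycle, repair, histone) among called genes whose groups do not overlap and whose higher group averages 2 FPKM or more, up to 4 genes with the smallest p from each of 56 lists or, where none passed, the 2 most abundant, and ACTB, GAPDH and CDKN1A. Further called list members are named for completeness, a few genes that the rule names are not reported here, a few picked genes are given by group only, and HSPA5, KRT8, KRT18 and marker genes were added after seeing values. Gene symbols and starts come from the table, whose 58735 identifiers are all in GENCODE 29, and promoters from RefSeq (GRCh38.p14). The alternatives tried were quantile normalization, TPM scaling, a pseudocount of 0.1, a filter at 5 FPKM or none, the 6 compared libraries only, a replicate block, no trend, protein-coding genes only, voom on recovered fragments, each library left out, and the 3 deviating libraries (control 2, nab-paclitaxel 1, combination 2) left out.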

Additional observations from a re-analysis of the deposited data

How the results depend on the processing

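For radiation against control, the count of 807 genes past the threshold was 531 with the replicate number as a block, 2947 without the 3 deviating libraries and 320 to 1305 with 1 library left out. The 337 rises numbered 216 with a mean of at least 5 FPKM, 1222 without the 3 deviating libraries and 131 to 520 with 1 library left out. The 470 falls numbered 301 with no filter, 306 with the replicate block, 1725 without the 3 deviating libraries and 186 to 785 with 1 library left out. For combination against nab-paclitaxel, 533 became 276 with no filter, 93 with the 6 compared libraries only, 306 with the replicate block, 1301 without the 3 deviating libraries and 177 to 734 with 1 library left out. The interaction gave 5 genes with no filter and 0 elsewhere. Fewer samples enter each fit that leaves libraries out, and the cause of the other shifts was not tested. The control library that correlated best with radiation 1, 2 and 3 was number 2, 3 and 2, which does not exclude a shared batch. With the replicate number as a block 128 of 162 named calls held. Of these 162 calls 79 held with any 1 library left out and 149 under quantile normalization, and 0 reversed in any setting. Scalings moved the median of all genes by less than 0.1. Depth limits genes near 1 FPKM most, and n = 3 per group limits all.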

Other observations

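The keratin gene cluster on chromosome 17 was described after its values were seen. Between KRT10 and KRT19 (chr17:40818117-41528308, hg38) the table lists 69 genes, of which 8 passed the filter of 1 FPKM, and 6 of these 8 rose while 0 fell. The members that rose were TMEM99 (0.46), KRTAP3-1 (0.76), KRTAP2-3 (1.68), KRTAP2-4 (1.41), KRT15 (0.58) and KRT19 (0.74). KRT10 (0.28 ± 0.19, adjusted p = 0.476) and KRT23 (-0.20 ± 0.11, adjusted p = 0.352) did not pass. TMEM99 measured 8.38, 7.95 and 7.49 FPKM in the radiation libraries, against 6.09, 5.24 and 5.27 FPKM in the control libraries (adjusted p = 0.0448). Its gene range overlaps that of KRT10 on the opposite strand. The strand setting of the counting is not given, so the values of TMEM99 and KRT10 are uncertain. A member passes the filter through the group where it is high, so the count over the 8 is a description. In the cells under drug the differences of the same 6 genes were all positive, and those of KRTAP2-3 and KRTAP2-4 passed the threshold.

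Genes at the edge of detection were counted as well. Of the 58735 genes, 282 had a fragment in all 3 radiation libraries and in none of the 3 control libraries, while 67 had the reverse pattern. These counts were taken without thinning. Each radiation library held more fragments (16219617 or more) than each control library (15864937 or fewer), and the part of depth in the counts was not tested. Of the 282 genes 88 were protein coding, 122 long noncoding and 57 pseudogenes. The highest number of fragments of any of them in 1 library was 14 and the median was 2. Between the combination and nab-paclitaxel libraries the corresponding numbers were 190 and 82 genes.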
